A study of Mus musculus with 6 samples.

Results

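The Bcl2 family genes that set the balance between survival and death of a cell were examined in muscle stem cells (MuSCs), the resident stem cells of skeletal muscle. The members were the 10 genes Bcl2, Bcl2l1, Mcl1, Bax, Bak1, Bbc3, Pmaip1, Bcl2l11, Bid, and Bad, which were taken by gene name from 49671 listed genes. Each of the 10 names matched 1 gene, and all 10 had enough counts to be tested. RNA-Seq libraries came from female C57BL/6 mice aged 4 to 6 months, 3 treated with RvD1 and 3 with vehicle. All mice received 50 μL of 1.2% BaCl2, a salt that destroys myofibers, in each tibialis anterior (TA) muscle. Mice of the RvD1 group received resolvin D1, a lipid mediator that promotes the resolution of inflammation, as daily IP injections of 100 ng, and vehicle mice received injections without it, with 0.1% ethanol in the carrier of both groups. At day 3 postinjury, the 2 TA muscles of each mouse were pooled, and FACS was used to enrich cells that displayed both β1-integrin and CXCR4 but none of CD45, CD11b, Sca-1, and Ter119. The labels also list CD31 among the excluded markers. A viability dye, propidium iodide, was added for the sort.

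Proteins of the Bcl2 family meet at the outer membrane of mitochondria. Survival proteins (Bcl2, Bcl-xL from Bcl2l1, and Mcl1) hold the effectors Bax and Bak1 in check, and effectors that are set free form pores through which cytochrome c leaves to activate caspases. BH3-only proteins sense stress and either neutralize the survival proteins or activate the effectors directly. They include Puma (from Bbc3) and Noxa (from Pmaip1), both targets of p53, Bim (from Bcl2l11), Bid, which caspase-8 cleaves, and Bad, which growth factor signaling phosphorylates. Much of this control acts on protein stability, cleavage, and phosphorylation, which transcript levels do not show.

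Total expected counts, the gene counts estimated by RSEM, ranged from 16148026 to 28149176 per library. Of 9 MuSC markers listed to describe the sorted cells, including Pax7, Myod1, and Itga7, all were detected. They summed to 2153 to 2350 TPM, the deposited level per transcript length, with RvD1 and 2007 to 2213 TPM with vehicle. The 12 leukocyte markers summed to 41.3 to 69.8 TPM with RvD1 and 61.5 to 102 TPM with vehicle, and all 12 had a log2 fold change below 0. Of these, 4 had an unadjusted p under 0.05 in edgeR, against 1.64% of all genes in that direction, and 4 did not overlap between groups in CPM, against 4.84%. No leukocyte marker was at 0 in every library, whereas 3 of 5 neutrophil markers were, and the 5 endothelial markers summed to at most 7.64 TPM with RvD1 and 9.40 TPM with vehicle. The 3 erythroid markers summed to 4.66 to 46.2 TPM over all libraries. RvD1 replicate 1 stood apart from the other libraries in several measures. The 5 fibro-adipogenic markers, which include the matrix gene Dcn, summed to 514 TPM in that library and to 221 to 323 TPM in the other 5, and Dcn alone gave 450.3 TPM of the 514 TPM. Another marker of that list went the other way, since Ly6a, which encodes Sca-1, was at 17.3 to 25.4 TPM with RvD1 and 26.3 to 39.7 TPM with vehicle (log2 fold change −0.62, edgeR, unadjusted p = 0.0141 and adjusted p = 0.971). Sums over 7 immediate early genes (1914 TPM against 1237 to 1571 TPM) and over 4 cell cycle genes (614 TPM against 761 to 934 TPM), lists chosen after values were seen, also set it apart. The part of these differences in the values below was not tested, and each result is given with and without that library where it turned on it. In bulk RNA, fewer cells that express a gene and less RNA per cell cannot be told apart.

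Mcl1, a short-lived survival protein, was the most abundant member with a mean of 173 ± 47.0 TPM over the 6 libraries (SD), a level above that of 92.0% of the genes tested. The effector Bax followed at 150.2 ± 18.7 TPM, and its range overlapped that of Mcl1, which was above Bax in 3 of the 6 libraries. Pmaip1 (88.0 ± 10.9 TPM) and Bad (36.7 ± 2.29 TPM) came next, each with a range that did not overlap that of its neighbors in the order. Bcl2l1 (18.7 ± 1.87 TPM), Bbc3 (15.2 ± 3.00 TPM), Bcl2l11 (14.0 ± 4.77 TPM), and Bid (13.2 ± 1.89 TPM) formed a group in which each range overlapped the next. Bcl2, the founding gene of the family, was low at 2.46 ± 1.42 TPM, and the effector Bak1 was lowest at 1.25 ± 0.442 TPM, above 13.1% of the genes tested. Bak1 rested on 12 to 59.8 expected counts per library, the fewest of any member.

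**Figure D1:**
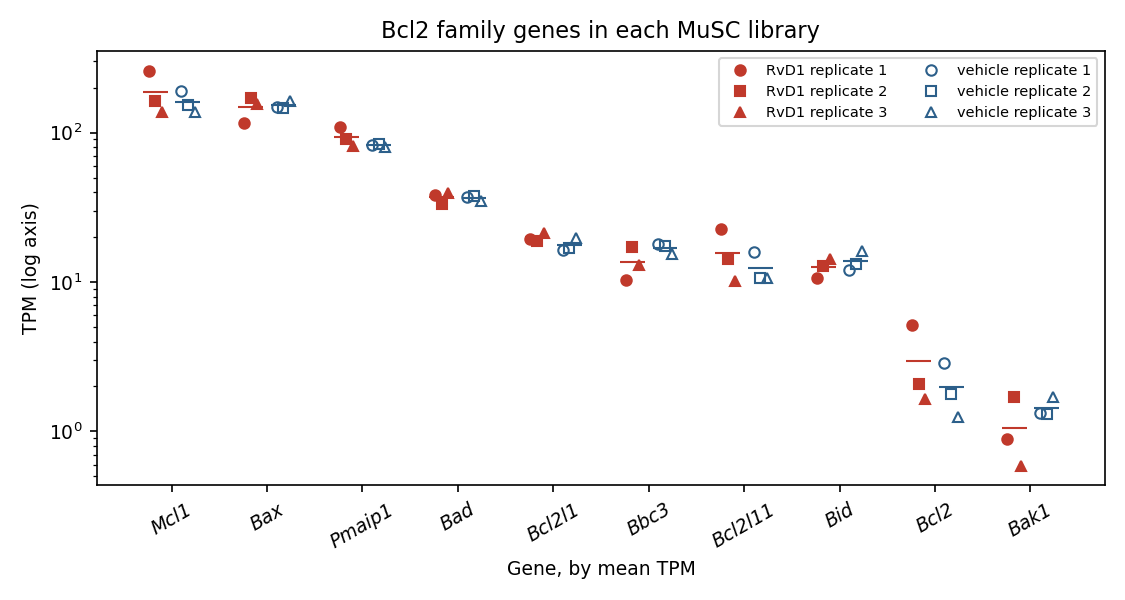
TPM (log axis) of the 10 Bcl2 family genes, ordered by mean, in each RvD1 library (filled) and vehicle library (open), with horizontal lines at group means and marker shape giving the replicate. Levels run from 0.59 TPM for Bak1 to 260.4 TPM for Mcl1, the groups overlap for every gene, and RvD1 replicate 1 is the highest library for Mcl1, Bcl2l11, Pmaip1, and Bcl2.

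Group means of the summed survival, effector, and BH3-only members lay between 148 and 210 TPM. The classes were further apart in RvD1 replicate 1, at 285, 117, and 191 TPM, respectively. Summed over the class, survival genes reached 210 ± 66.4 TPM with RvD1 and 179 ± 26.3 TPM with vehicle (SD, n = 3). Effectors reached 148 ± 28.2 TPM and 154.5 ± 9.06 TPM, and BH3-only genes reached 172 ± 16.6 TPM and 162 ± 4.25 TPM (SD, n = 3). A single gene made up most of each of the first 2 classes in every library. Within the members, Mcl1 accounted for 85.7% to 91.4% of survival transcripts and Bax for 99.0% to 99.6% of effector transcripts. Pmaip1 accounted for 49.8% to 57.2% of BH3-only transcripts. The effector class held Bax and Bak1 only. Bok, another Bcl2 family gene, was at 99.4 to 126.7 TPM over the 6 libraries and was not counted in any class. Bcl2l1 exceeded Bcl2 by 3.79-fold to 15.7-fold on the TPM scale.

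The level of survival transcripts over that of the other 7 members was 0.925, 0.539, and 0.511 with RvD1 and 0.659, 0.548, and 0.489 with vehicle, here and below in the order of replicates 1, 2, and 3. Only RvD1 replicate 1 lay above the vehicle range, and the groups overlapped. On the log2 scale the ratio was −0.66 ± 0.47 with RvD1 and −0.83 ± 0.22 with vehicle (SD, n = 3). The difference of 0.18 was smaller than the pooled SD of 0.37, and it was −0.10 without RvD1 replicate 1. As a score over chosen genes, the ratio was not tested.

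**Figure D2:**
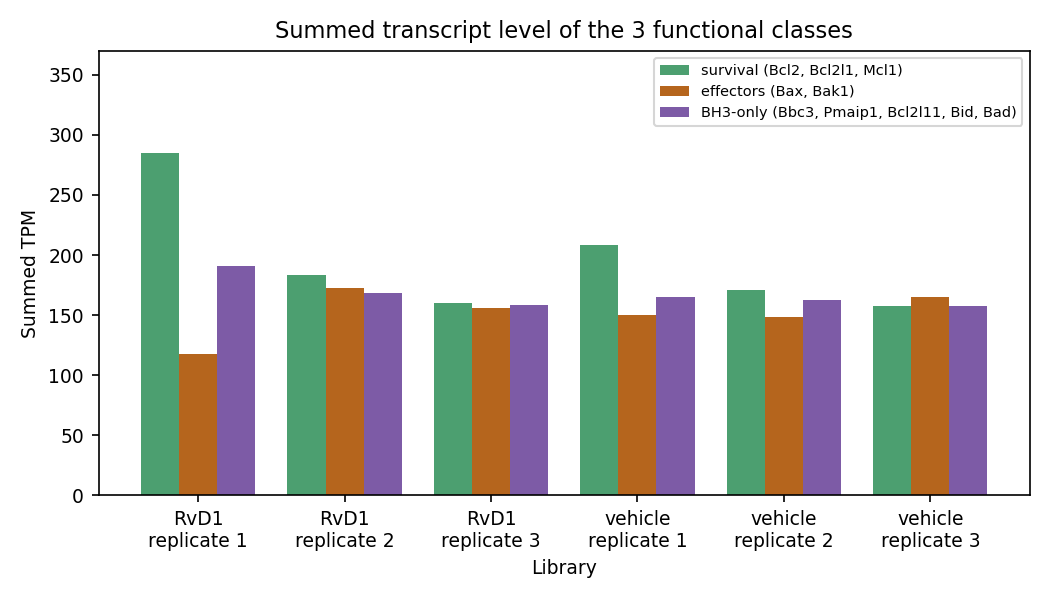
Summed TPM of the survival genes, the effectors, and the BH3-only genes in each of the 6 libraries, with bars that start at 0. Survival transcripts are 285 TPM in RvD1 replicate 1 and 157 to 208 TPM in the other libraries, and effector transcripts are lowest in RvD1 replicate 1 at 117 TPM.

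The comparison between RvD1 and vehicle asked whether treatment altered expression of these genes in the MuSCs of injured muscle. It was made with edgeR's quasi-likelihood test on all 14494 genes with enough counts, of which 0.0% had a Benjamini-Hochberg adjusted p under 0.05. None of the 10 members had an adjusted p under 0.05 (0.971 to 0.978), and 0 had an unadjusted p under 0.05, against 3.47% of all genes tested. DESeq2 and limma-voom with a surrogate variable removed also gave 0 members at an unadjusted p under 0.05, against 2.05% and 11.2% of the genes in those fits. The RvD1 and vehicle libraries overlapped for each of the 10 members in CPM, counts scaled to the library total by TMM factors, whereas they did not overlap for 9.62% of all genes tested. In TPM the groups overlapped for all 10 as well, whereas they were apart for 11.4% of all genes. Of the members, 5 had a log2 fold change above 0, against 53.5% of all genes, and the median was 0.02 for the members and 0.01 for all genes. The 95% interval of the fold change lay within 1.5-fold in either direction for 4 members and within 2-fold for 8, the exceptions being Bcl2 and Bak1.

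**Figure D3:**
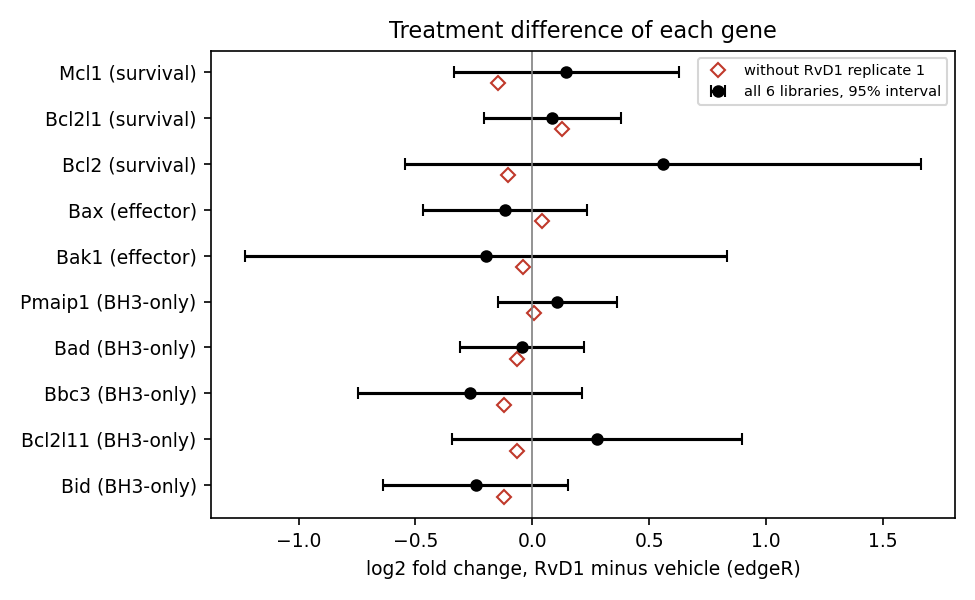
The log2 fold change of each member (RvD1 minus vehicle, edgeR) with its 95% interval for all 6 libraries (black) and the value without RvD1 replicate 1 (red diamonds). Every interval includes 0, and without that library the values of Bcl2, Mcl1, Bcl2l11, and Bax lie on the other side of 0.

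Among the survival genes, Mcl1 (ENSMUSG00000038612, chromosome 3, 95658788 to 95663176 on GRCm38) measured 260.4, 162, and 137 TPM with RvD1 and 189, 152, and 136 TPM with vehicle. Replicate 1 was the highest library of each group, and the other RvD1 libraries lay within the vehicle range in TPM. In CPM, Mcl1 in RvD1 replicate 3 was below that range (274 against 297 to 391 CPM). Its log2 fold change was 0.15 (standard error 0.21, 95% interval −0.33 to 0.63, edgeR's quasi-likelihood test, adjusted p = 0.971). It was −0.15 without RvD1 replicate 1.

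Bcl2 (ENSMUSG00000057329, chromosome 1, 106538178 to 106714274) was at 5.14, 2.09, and 1.64 TPM with RvD1 and at 2.88, 1.78, and 1.25 TPM with vehicle. These levels rested on 80 to 427 expected counts, and the highest library again was RvD1 replicate 1. Bcl2 had the largest difference of the members, a log2 fold change of 0.56, but also the largest standard error (0.49), so that the 95% interval ran from −0.55 to 1.66 (adjusted p = 0.971 from edgeR). Without RvD1 replicate 1, the log2 fold change was −0.10, and without vehicle replicate 1 it was 1.05. An antisense gene, D630008O14Rik, overlaps an exon of Bcl2 and had at most 1.74 expected counts in a library.

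Bcl2l1 (ENSMUSG00000007659, chromosome 2, 152780668 to 152831728), which encodes Bcl-xL, was at 19.5, 18.9, and 21.3 TPM with RvD1 and at 16.3, 16.8, and 19.7 TPM with vehicle. It varied little, since the highest library was 1.25-fold above the lowest in CPM. The highest library of each group was replicate 3, and the groups overlapped through vehicle replicate 3 alone. A log2 fold change of 0.09 was found (standard error 0.13), and its 95% interval of −0.21 to 0.38 corresponds to 0.867-fold to 1.30-fold.

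Of the effectors, Bax (ENSMUSG00000003873, chromosome 7, 45461697 to 45466898) was at 116, 171, and 155 TPM with RvD1 and at 149, 147, and 163 TPM with vehicle. RvD1 replicate 1 was the lowest library and RvD1 replicate 2 the highest. With RvD1 minus vehicle, the log2 fold change was −0.12 (standard error 0.16, 95% interval −0.47 to 0.24), and without RvD1 replicate 1 it was 0.04. Gm45808, annotated on the same strand, shares exon sequence with Bax and was not analysed here.

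Bak1 (ENSMUSG00000057789, chromosome 17, 27019810 to 27029009) was at 0.89, 1.69, and 0.59 TPM with RvD1 and at 1.32, 1.31, and 1.71 TPM with vehicle. RvD1 replicates 1 and 3 were below every vehicle library and RvD1 replicate 2 was within the vehicle range in TPM but above it in CPM (2.13 against 1.38 to 1.55 CPM). The log2 fold change was −0.20 (standard error 0.45, 95% interval −1.23 to 0.83). Leaving out RvD1 replicate 2 gave −0.82, and leaving out RvD1 replicate 3 gave 0.09. Exons of Ggnbp1, on the opposite strand, overlap those of Bak1 and held 6.69 to 19 expected counts, so that a part of the low Bak1 signal cannot be assigned to 1 gene if counting ignored strand, which the sources used here do not state.

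Among the BH3-only genes, Pmaip1 (ENSMUSG00000024521, chromosome 18, 66458533 to 66465565), which encodes Noxa, a partner that binds Mcl1, was at 109, 90.8, and 81.7 TPM with RvD1 and at 82.4, 84.0, and 80.3 TPM with vehicle. The vehicle libraries lay close together, and RvD1 replicates 1 and 2 were above them. RvD1 replicate 3 was within the vehicle range in TPM but below it in CPM (125 against 132 to 139 CPM). The log2 fold change was 0.11 (standard error 0.11, 95% interval −0.15 to 0.36), and it was 0.01 without RvD1 replicate 1. Mcl1 exceeded Pmaip1 by 1.68-fold to 2.39-fold on the TPM scale.

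Bcl2l11 (ENSMUSG00000027381, chromosome 2, 128126038 to 128162547), which encodes Bim, was at 22.5, 14.2, and 10.1 TPM with RvD1 and at 16.0, 10.6, and 10.6 TPM with vehicle. The lowest and the highest library were both RvD1 libraries. Its log2 fold change was 0.28 (standard error 0.27, 95% interval −0.34 to 0.90), and it was −0.07 without RvD1 replicate 1. Without RvD1 replicate 3 it was 0.52 (edgeR, unadjusted p = 0.0381 and adjusted p = 0.788). Although both genes differed among libraries, Mcl1 exceeded Bcl2l11 by 11.5-fold to 14.3-fold in TPM in all 6 libraries. This was a narrower span than that of either gene. Replicate 1 was the highest library of each group for both genes, as for 20.8% of all genes tested. The share of gene pairs with so narrow a span was not computed.

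Bbc3 (ENSMUSG00000002083, chromosome 7, 16308393 to 16318205), which encodes Puma, was at 10.3, 17.2, and 13.1 TPM with RvD1 and at 17.9, 17.5, and 15.4 TPM with vehicle. RvD1 replicates 1 and 3 were below every vehicle library. Between groups the log2 fold change was −0.27 (standard error 0.21, 95% interval −0.75 to 0.21, edgeR's quasi-likelihood test, adjusted p = 0.971). It was −0.12 without RvD1 replicate 1 (edgeR, unadjusted p = 0.551, adjusted p = 0.971) and −0.51 without RvD1 replicate 2 (edgeR, unadjusted p = 0.026, adjusted p = 0.725), the only refit in which Bbc3 had an unadjusted p under 0.05.

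Bid (ENSMUSG00000004446, chromosome 6, 120891930 to 120916853) was at 10.6, 12.8, and 14.3 TPM with RvD1 and at 12.0, 13.3, and 16.1 TPM with vehicle. Its log2 fold change of −0.24 (standard error 0.17, 95% interval −0.64 to 0.15) had the smallest unadjusted p of the members (0.199 from edgeR's quasi-likelihood test, adjusted p = 0.971). It was −0.12 without RvD1 replicate 1 or vehicle replicate 3, and −0.36 without RvD1 replicate 3. An exon of Bcl2l13, on the opposite strand, overlaps Bid, and Bcl2l13 had 1885 to 3472 expected counts against 265 to 463 for Bid. Bad (ENSMUSG00000024959, chromosome 19, 6941861 to 6951899) was the steadiest member at 38.4, 33.2, and 39.2 TPM with RvD1 and 37.1, 37.6, and 34.8 TPM with vehicle. Its log2 fold change was −0.04 (standard error 0.12, 95% interval −0.31 to 0.22), and an exon of Gpr137 overlaps it from the opposite strand.

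For Mcl1, Bcl2, and Bcl2l11, replicate 1 was the highest library of both groups. This arrangement was found for 3 of the 10 members and for 20.8% of all genes tested, so it is not particular to these genes. The highest library exceeded the lowest by 4.45-fold for Bcl2, 2.32-fold for Bcl2l11, and 1.87-fold for Mcl1 in CPM, against a median of 1.36-fold over the 10455 genes with a mean of at least 5 CPM. A larger span was found for 0.717%, 5.04%, and 10.8% of those genes, respectively. Bad and Bcl2l1 were at the other end, with a larger span for 89.4% and 73.4% of those genes.

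The sequences before the transcription start sites are shown for these 3 genes, chosen after their values were seen, because they had the widest spans of the members with a mean of at least 5 CPM. They are the 250 bases before the start on the gene's strand, from RefSeq on GRCm38.p6, which listed a promoter for 9 of the 10 members. Capitals mark matches, on either strand, to the GC box GGGCGG, the CCAAT box CCAAT, or the forkhead site GTAAACA.
Mcl1, chr3:95658471-95658720, plus strand: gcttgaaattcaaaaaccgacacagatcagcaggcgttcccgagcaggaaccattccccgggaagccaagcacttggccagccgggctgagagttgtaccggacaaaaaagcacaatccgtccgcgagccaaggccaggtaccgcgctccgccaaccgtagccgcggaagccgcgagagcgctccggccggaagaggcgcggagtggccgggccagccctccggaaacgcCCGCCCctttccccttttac
Bcl2, chr1:106714291-106714540, minus strand: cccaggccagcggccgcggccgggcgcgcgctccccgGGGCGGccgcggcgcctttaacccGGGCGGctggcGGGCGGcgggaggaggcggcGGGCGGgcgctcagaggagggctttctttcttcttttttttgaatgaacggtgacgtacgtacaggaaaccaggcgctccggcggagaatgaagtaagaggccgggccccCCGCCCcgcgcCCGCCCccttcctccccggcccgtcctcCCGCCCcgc
Bcl2l11, chr2:128125788-128126037, plus strand: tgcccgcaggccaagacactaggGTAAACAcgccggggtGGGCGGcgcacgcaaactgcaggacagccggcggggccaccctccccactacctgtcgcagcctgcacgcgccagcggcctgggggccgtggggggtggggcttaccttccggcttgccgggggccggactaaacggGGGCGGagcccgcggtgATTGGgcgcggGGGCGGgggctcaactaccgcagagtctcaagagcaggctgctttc
All 3 windows were GC rich (64.4%, 74.8%, and 72.0% G or C, against a median of 52.4% over 32851 promoter windows). They held 1, 7, and 3 GC boxes, a motif found in 32.7% of all windows. Bcl2l11 also held 1 CCAAT box (33.8% of all windows) and 1 forkhead site (3.17% of all windows), the motif of FoxO factors, of which Bcl2l11 is a known target. The 3 windows held no match to the TATA box TATAAA (12.4% of all windows), the AP-1 site TGANTCA (6.75%), the cAMP response element TGACGTCA (1.55%), or the E-box CAGCTG (13%), where N is any base. Matches are given as a description of the sequence, and binding was not measured. A second Bcl2l11 window, further into the locus, held no forkhead site. Among the other members, a Bbc3 window (chr7:16310011-16310260) also held 1 forkhead site.

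Other genes of the pathway were taken from 6 lists with 56 genes in all, of which 45 had enough counts to be tested. Of these, 20 had a log2 fold change above 0 and 25 below 0, and the median was −0.02. None had an adjusted p under 0.05. In edgeR 1 gene was higher with RvD1 at an unadjusted p under 0.05 (against 1.83% of all genes) and 1 was lower (against 1.64%). In CPM, the RvD1 and vehicle libraries did not overlap for 2 of the 45 genes. Both were lower with RvD1, against 4.84% of all genes in that direction.

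Of 15 other Bcl2 family genes, 8 were tested, 3 above and 5 below 0. Bnip3l, a mitophagy receptor, was the most abundant (220 ± 46.4 TPM with RvD1, 198 ± 21.3 TPM with vehicle, SD, n = 3). The 3 genes that encode A1, a survival protein of leukocytes, were nearly absent, with 0 counts in all libraries together for Bcl2a1a, 7.13 for Bcl2a1b, and 4.88 for Bcl2a1d, near-identical genes among which RSEM may have split reads. The Bcl-w gene Bcl2l2 was tested, and its log2 fold change was −0.01 (standard error 0.38).

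The 12 genes downstream of mitochondria, including Cycs, Apaf1, and the caspases, were all tested, with 6 on either side of 0 and a median of −0.01. For Casp9, which the apoptosome activates, the log2 fold change was 0.0016 with a standard error of 0.17. Htra2, a mitochondrial protease, had the highest mean over the 6 libraries (138 ± 32.7 TPM with RvD1, 152 ± 6.03 TPM with vehicle, SD, n = 3). Within the death receptor pathway, 9 of 11 genes were tested and none had an unadjusted p under 0.05 in edgeR. The TNF receptor gene Tnfrsf1a was the most abundant (60.7 ± 16.5 TPM with RvD1, 52.0 ± 11.4 TPM with vehicle, SD, n = 3).

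All 5 inhibitors of apoptosis were tested, 4 above and 1 below 0. Birc2, which encodes the ubiquitin ligase cIAP1, was at 31.9, 19.1, and 17.7 TPM with RvD1 and at 20.2, 15.5, and 16.8 TPM with vehicle. The highest library was RvD1 replicate 1, and the groups overlapped. Its log2 fold change was 0.40 (standard error 0.17, edgeR, unadjusted p = 0.0491 and adjusted p = 0.971). Without RvD1 replicate 1 it was 0.18 (edgeR, unadjusted p = 0.173), and of the 6 fits that left out a library only that without RvD1 replicate 2 kept the unadjusted p under 0.05. Birc5 (survivin), which also acts in mitosis, was the most abundant (261 ± 37.7 TPM with RvD1, 282 ± 23.6 TPM with vehicle, SD, n = 3).

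Another list held the 3 Vdac genes, which encode channels of the outer mitochondrial membrane, with Bcap31 and Bag1, whose proteins interact with Bcl2, and 4 of its 5 genes were below 0. Bag1, a cochaperone that binds Bcl2, was at 177, 179, and 189 TPM with RvD1 and at 201, 206, and 194 TPM with vehicle. Every RvD1 library was below every vehicle library. Its log2 fold change was −0.22 (standard error 0.08, edgeR, unadjusted p = 0.0279 and adjusted p = 0.971). With a library left out it was −0.24 to −0.19, and the unadjusted p stayed under 0.05 without RvD1 replicate 1 or 3 but not in the other 4 fits. The groups of Vdac3 did not overlap in CPM but did in TPM (473 to 531 TPM with RvD1, 517 to 547.5 TPM with vehicle). Its log2 fold change was −0.16 (standard error 0.09, edgeR, unadjusted p = 0.116). Vdac3 was the most abundant of the list (505 ± 29.1 TPM with RvD1, 533 ± 15.4 TPM with vehicle, SD, n = 3). Of 8 upstream transcription factors, 6 were tested. Trp53, which encodes p53, was the most abundant (170 ± 15.8 TPM with RvD1, 167 ± 3.44 TPM with vehicle, SD, n = 3), and its log2 fold change was −0.02 (standard error 0.10).

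**Figure D4:**
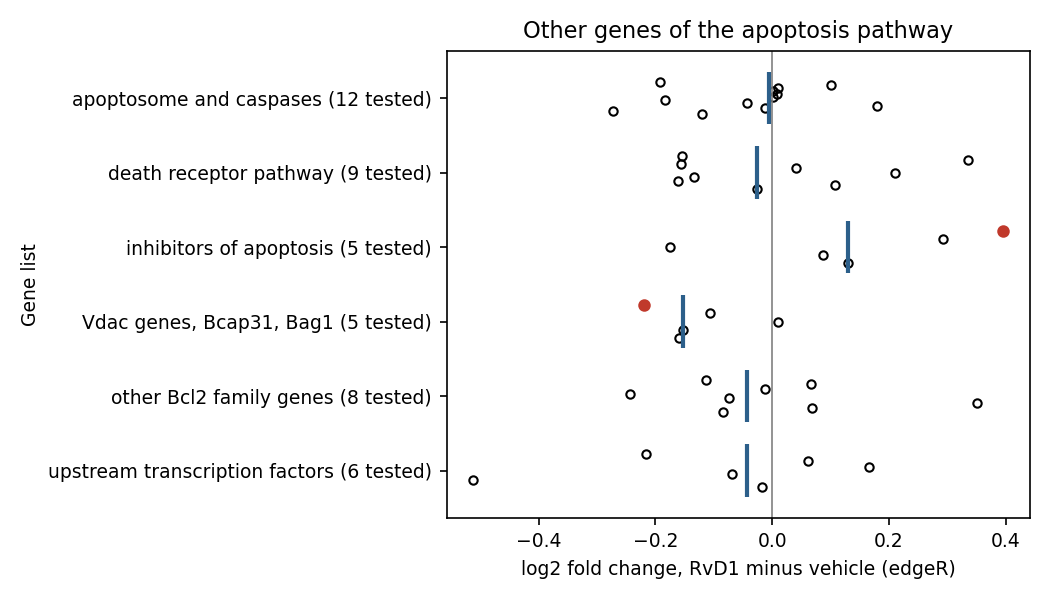
The log2 fold change (RvD1 minus vehicle, edgeR) of the 45 tested genes in 6 lists of the apoptosis pathway, 1 circle per gene, with blue bars at list medians. Filled red circles are the 2 genes with an unadjusted p under 0.05, Birc2 (0.40) and Bag1 (−0.22), and the values of all 45 genes lie between −0.51 and 0.40.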

How the data were processed

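RNA-Seq of FACS-sorted MuSCs from 6 mice was analysed, with 1 library per mouse. Per the labels and the methods, the authors aligned 76-bp single-ended reads to mm10 with STAR 2.5.0a and quantified genes with RSEM, which splits reads that fit more than 1 gene. The deposited expected counts are not scaled for depth. TPM values, as deposited by the authors, are scaled per transcript length with the same total in each library. FPKM values were not used. After 1 stray header line was removed, each table listed 49671 genes, of which 22860 had 0 counts in every library.

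Expected counts were rounded and tested with edgeR 4.0.16 in R 4.3.3 (TMM factors, filterByExpr by group, quasi-likelihood test), and p values were adjusted over all genes by the Benjamini-Hochberg method. Standard errors were derived from the fold change and the F statistic. The limma-voom procedure of the methods (limma 3.58.1, sva 3.50.0, 1 surrogate variable removed) and DESeq2 1.42.0 were alternatives, together with other scalings, no count filter, TPM, a replicate block, and each replicate left out. Tests were checked on simulated counts. CPM are counts scaled to the library total after its TMM factor was applied. Levels were compared between genes in TPM only. Depth sets a floor of 3 counts, or 0.107 to 0.186 CPM, for counting error only.

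The members and gene lists were chosen with earlier results of these data known. Named genes are the members and, from each pathway list, the most abundant gene, those with an unadjusted p under 0.05, and those whose groups do not overlap. Casp9, Bcl2l2, Bok, Bnip3, Cflar, Dcn, Ly6a, and the Bcl2a1 genes were named in addition, after their values were seen. Positions and exon overlaps are from GENCODE M21 on GRCm38, and promoters from RefSeq on GRCm38.p6. Itgam, a leukocyte marker, was listed under 2 gene IDs, of which the one with counts was used.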

Additional observations from a re-analysis of the deposited data

How the results depend on the processing

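Genes with an adjusted p under 0.05 numbered 0 in edgeR, DESeq2, both limma-voom fits, the TPM fits, and the other edgeR fits with all libraries, except without a count filter, where they numbered 12 (none of them a member), and 0 to 1 when 1 replicate was left out. The smallest adjusted p of a member over all fits was 0.564, with limma-voom and a surrogate variable removed. The direction of the members' fold changes was kept in 88 of 90 refits with all libraries and in 54 of 60 that left out a replicate. The exceptions with all libraries were those of Bad, 0.0137 with log2(TPM + 1) and 0.0140 with log2(TPM + 0.1). Without 1 replicate, log2 fold changes ranged from −0.10 to 1.05 for Bcl2, −0.15 to 0.33 for Mcl1, −0.0671 to 0.52 for Bcl2l11, −0.27 to 0.0404 for Bax, −0.82 to 0.0912 for Bak1, and −0.0727 to 0.00511 for Bad, with no change of direction for Bbc3 (−0.51 to −0.12), Bid (−0.36 to −0.12), Bcl2l1 (0.02 to 0.19), and Pmaip1 (0.01 to 0.20). The number of members with an unadjusted p under 0.05 was 0 to 1 in these refits (Bbc3 without RvD1 replicate 2, against 6.83% of all genes, and Bcl2l11 without RvD1 replicate 3, against 4.61%), and the number whose groups do not overlap was 0 to 2, against 15% to 23.2% of all genes. This last alternative was added after the values were seen. The difference in the log2 ratio of survival to other members was −0.10 to 0.33.

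Of the pathway genes, 2 had an unadjusted p under 0.05. The number was 3 without a count filter (Birc2, Bnip3, and Cflar, but not Bag1, against 4.29% of all genes), 1 with upper-quartile factors, limma-voom without surrogate variables, log2(TPM + 1), or log2(TPM + 0.1) (against 3.49% to 4.35%), 5 with a surrogate variable removed (against 11.2%), and 0 to 4 with a replicate left out (against 1.9% to 6.83%). Deviations of libraries with the same replicate number correlated at 0.310 for replicate 1, −0.001 for replicate 2, and 0.126 for replicate 3. Pairs with different numbers ran from −0.246 to 0.173 (RvD1 replicate 2 with vehicle replicate 3). The mean correlation was 0.145 for pairs with the same number and −0.073 for pairs with different numbers. The main fit did not use the number as a pairing. With the replicate number as a block, 1 member (Bcl2, log2 fold change 0.49, edgeR unadjusted p = 0.0221, adjusted p = 0.791) and 4 pathway genes had an unadjusted p under 0.05, against 6.18% of all genes, and 0 genes had an adjusted p under 0.05. Depth limits the values of Bak1, with 12 to 59.8 expected counts per library.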
